A study of Mus musculus with 12 samples.

Results

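The genes described here are the 10 genes of retinoic acid metabolism, binding and signalling Cyp26a1, Aldh1a2, Aldh1a3, Dhrs3, Rdh10, Crabp1, Crabp2, Rara, Rarb and Rarg, out of 25897 gene symbols in the deposited count table. They were chosen by symbol, with the changes of these genes over the same 12 libraries already known. Their levels and changes are therefore given as a description, and no p-value of a single gene of the 10 is printed. Where test calls among the 10 are given below, they are a description too and carry no support. All 10 were found in the table.

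Retinoic acid is a small lipid signal made from vitamin A. Retinol dehydrogenases oxidise retinol to retinaldehyde, retinaldehyde dehydrogenases oxidise this to retinoic acid, and CYP26 enzymes break retinoic acid down. Retinoic acid acts through the nuclear receptors RARα, RARβ and RARγ, which bind DNA with RXR partners and recruit corepressors or coactivators. In embryonic stem cells it is best known for driving exit from pluripotency and the expression of Hox genes.

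The cells were mouse embryonic stem cells of the E14tg2a line, from a 129SV background, that carried a cRAF-ERT2 construct. This is a RAF kinase fused to a modified oestrogen receptor domain, which 4-hydroxytamoxifen (4OHT) switches on, and it feeds the ERK pathway. The groups were cells given 250 nM 4OHT for 1 h, 2 h or 4 h and untreated cells (0 h), with 3 clones (a, b and c) in each group. Every group, the untreated one included, carried the construct. Every group was grown in serum with LIF and 2 µM Chir99021 and was moved 24 h before treatment to serum with LIF and 250 nM PD173074, an FGF receptor inhibitor. Ethynyl uridine (5 mM) was added to every group 15 min ahead of RNA isolation. No group without the construct and no vehicle group was analysed here, and the labels used do not name the promoter that drives the construct. The treatment protocol names only 0 h and 2 h, while the titles give all 4 times.

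Total RNA depleted of ribosomal RNA was sequenced to total counts of 24213641 to 31435301 per library, so that 1 count was worth 0.0318 to 0.0413 counts-per-million units (CPM). The ERK target Dusp6, a phosphatase gene used as a check of activation, was at 257 to 387 CPM at 4 h and 48.8 to 56.3 CPM in untreated cells. Egr1 and Spry4, also ERK targets, were lowest in clone a at each treated time. At 4 h Egr1 was at 32.6 CPM in clone a, 162 CPM in clone b and 90.1 CPM in clone c. Spry4 was then at 290 CPM in clone a, 859 CPM in clone b and 625 CPM in clone c. All 8 embryonic stem cell markers looked up were at 1 CPM or more in every library of both groups, with a summed level of 4286 to 4305 CPM at 4 h and 4305 to 4697 CPM in untreated cells. Single markers moved both ways: 2 were called higher and 2 lower, with Utf1 at 69.9 CPM at 4 h and 23.1 CPM in untreated cells, and Nanog at 282 CPM at 4 h and 699 CPM in untreated cells.

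At 4 h of 4OHT, Cyp26a1 and Aldh1a3, which were close to absent in untreated cells, were 27.6-fold and 23.5-fold higher than in untreated cells, and Rarg was 3.21-fold higher. Dhrs3 was 3.39-fold lower at 4 h and as low at 2 h. Rarg and Dhrs3 differed from untreated cells at 1 h in every clone, whereas Cyp26a1 overlapped the untreated range until 4 h. Rdh10 and Rara also lay apart from untreated cells at 1 h, by smaller log2 differences (−0.20 and 0.30), and neither was called at 1 h. The share of all genes tested whose groups did not overlap is not given here. Nothing is therefore read from a lack of overlap beyond the values. Aldh1a2, Rara, Rarb, Crabp1 and Crabp2 stayed within 0.40 of 0 on the log2 scale at every time. In bulk RNA, fewer cells with a transcript and less RNA per cell cannot be told apart.

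**Figure D1:**
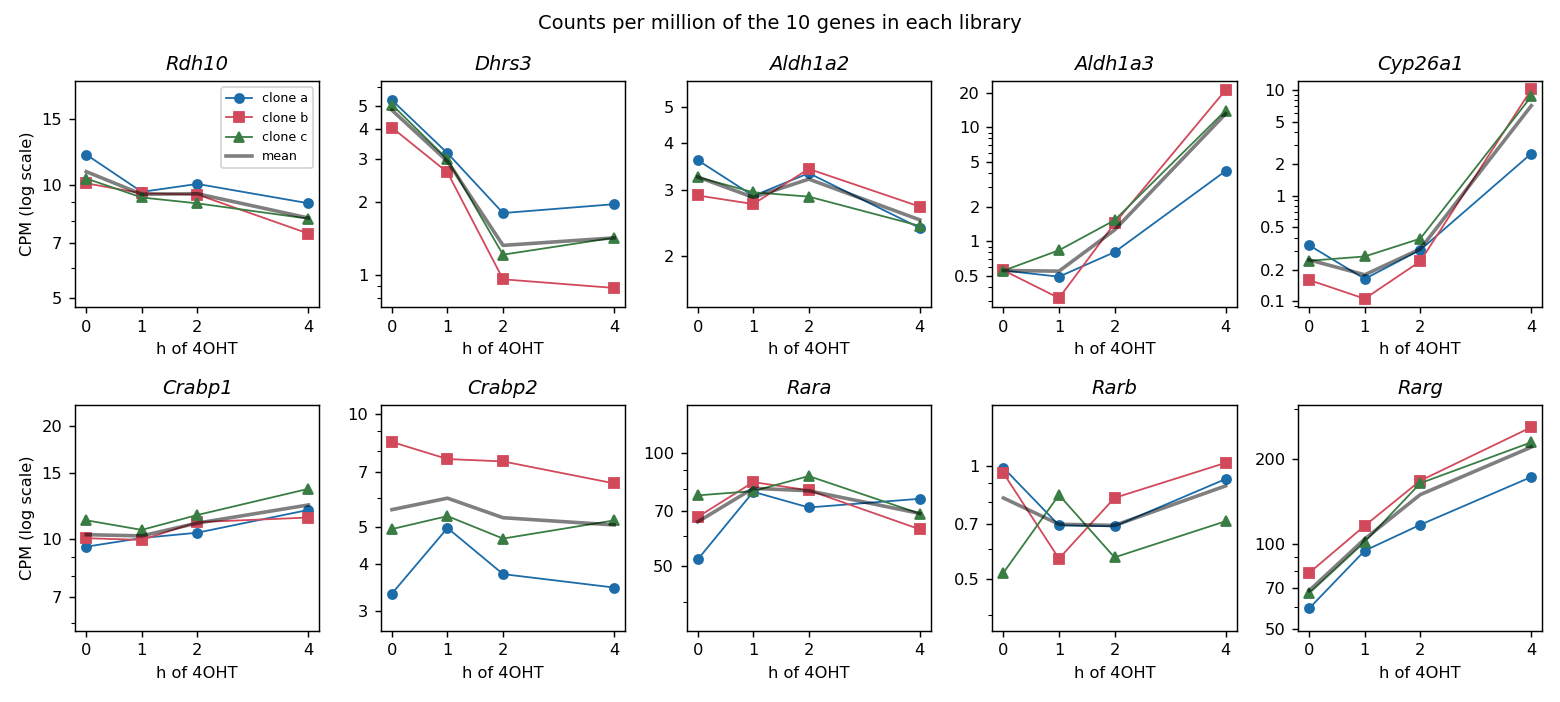
CPM (log axis, a different range in each panel) of each gene against hours of 4OHT, with 1 symbol per clone and the mean of 3 clones in grey. Cyp26a1 and Aldh1a3 stand above all earlier libraries in every clone at 4 h, Rarg climbs through all times and Dhrs3 is low from 2 h on.

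In untreated cells, with levels expressed as CPM per kb of exon so that genes can be compared, Rarg (16.1 ± 2.34, SD, n = 3), Rara (15.0 ± 2.89) and Crabp1 (12.8 ± 1.07) were highest, and neighbours in that order overlapped. Crabp2 (4.21 ± 1.97) and Rdh10 (2.61 ± 0.252) came next and overlapped each other. Dhrs3 (1.64 ± 0.221) and Aldh1a2 (1.44 ± 0.155) followed, and these also overlapped. Rarb, Cyp26a1 and Aldh1a3 were lowest, at 0.156, 0.124 and 0.120 CPM per kb, and did not separate beyond their spread. At 4 h the order per kb was Rarg (51.5 ± 10.2), Rara (15.8 ± 1.48), Crabp1 (15.4 ± 1.43), Crabp2 (3.84 ± 1.17), Cyp26a1 (3.57 ± 2.03), Aldh1a3 (2.85 ± 1.86), Rdh10 (1.96 ± 0.183), Aldh1a2 (1.10 ± 0.0814), Dhrs3 (0.485 ± 0.184) and Rarb (0.168 ± 0.0298). At that time Rarg no longer overlapped Rara. Rara and Crabp1 overlapped each other, and Crabp2, Cyp26a1, Aldh1a3 and Rdh10 overlapped in turn.

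The promoters of Cyp26a1 and Rarb are shown because each is a textbook example of a gene with a retinoic acid response element, and that of Rarg because it was higher at each successive time. RAR and RXR bind repeats of a 6-base half-site, commonly in the same orientation with a spacer of 5 bases. The windows run from 250 bases before to 50 bases after the RefSeq start on GRCm38.p6, and are written along the gene's strand with half-sites in capitals.
Cyp26a1, chr19:37697558-37697857, plus strand: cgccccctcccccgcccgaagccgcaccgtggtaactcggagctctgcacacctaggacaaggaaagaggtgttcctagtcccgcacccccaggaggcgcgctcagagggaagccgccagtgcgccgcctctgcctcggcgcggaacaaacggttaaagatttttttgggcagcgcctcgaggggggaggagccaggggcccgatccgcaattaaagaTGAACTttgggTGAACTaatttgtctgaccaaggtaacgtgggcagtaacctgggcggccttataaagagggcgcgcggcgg
Rarb, chr14:16575427-16575726, minus strand: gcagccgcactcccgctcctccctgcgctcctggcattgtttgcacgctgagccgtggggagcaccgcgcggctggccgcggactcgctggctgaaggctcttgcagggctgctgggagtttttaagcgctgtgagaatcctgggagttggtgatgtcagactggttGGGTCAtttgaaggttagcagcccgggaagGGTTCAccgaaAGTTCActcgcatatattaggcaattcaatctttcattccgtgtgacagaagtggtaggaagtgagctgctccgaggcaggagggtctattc
Rarg, chr15:102257473-102257772, minus strand: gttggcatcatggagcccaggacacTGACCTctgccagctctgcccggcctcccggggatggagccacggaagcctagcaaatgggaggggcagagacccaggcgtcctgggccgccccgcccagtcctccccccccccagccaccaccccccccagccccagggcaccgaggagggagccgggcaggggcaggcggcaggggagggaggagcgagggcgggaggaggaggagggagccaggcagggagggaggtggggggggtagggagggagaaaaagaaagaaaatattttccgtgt
The letters searched were AGGTCA as well as AGTTCA, and further GGGTCA as well as GGTTCA, on both strands. The spacer of 5 between half-sites in the same orientation was found in Cyp26a1, on the strand opposite to the gene 32 to 16 bases before the start, and in Rarb, on the gene's strand 53 to 37 bases before the start. The Rarg window shown held 1 half-site, 225 to 220 bases before the start, and the second Rarg window (chr15:102246451-102246750) held 0. RefSeq windows were matched for 7 of the 10 genes, 13 windows in all, and 5 of the 13 held a half-site, in Cyp26a1, Rara, Rarb and Rarg. Of all 32851 mouse windows of this length, 43.7% held a half-site and 0.0974% held a repeat with a spacer of 5. A repeat with a spacer of 1 or 2 was in 0.222% and 0.268% of all windows and in none of the 13. These matches describe letters only, since binding was not measured. Of the pair with a spacer of 5, Cyp26a1 was 27.6-fold higher at 4 h and Rarb differed by 0.11 on the log2 scale. These are whole-gene values. The Rarb window lies inside its annotated gene and exons of Top2b overlap Rarb, so its value is not that of this start alone.

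Retinaldehyde formation and its reversal were covered by Rdh10 and Dhrs3. Rdh10 (chr1:16105774-16133734, plus strand) encodes the main retinol dehydrogenase of the mouse embryo. It was at 8.94, 7.43 and 8.14 CPM at 4 h in clones a, b and c, against 12.1, 10.1 and 10.4 CPM in untreated cells. The 4 h values lay below every untreated value, by a small margin on the log2 scale (−0.41 ± 0.12, SE). At 1 h and at 2 h Rdh10 differed by −0.20 ± 0.12 each, also without overlap with untreated cells.

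Dhrs3 (chr4:144892827-144928209, plus strand) encodes a reductase that turns retinaldehyde back into retinol and so opposes Rdh10. It was at 3.18, 2.65 and 3.0 CPM at 1 h in clones a, b and c, against 5.27, 4.06 and 5.05 CPM in untreated cells. It was at 1.80, 0.957 and 1.21 CPM at 2 h and at 1.96, 0.882 and 1.42 CPM at 4 h. Treated and untreated libraries did not overlap at any time, and the 2 h and 4 h values overlapped each other. Against untreated cells Dhrs3 differed on the log2 scale by −0.71 ± 0.27 after 1 h, by −1.86 ± 0.29 after 2 h and by −1.76 ± 0.28 after 4 h. Dhrs3 differed by −1.16 ± 0.29 at 2 h against 1 h, and by 0.10 ± 0.30 at 4 h against 2 h.

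Of the retinaldehyde dehydrogenases, which make retinoic acid, Aldh1a2 (chr9:71215789-71296243, plus strand) is the main embryonic enzyme. It was at 2.38, 2.71 and 2.41 CPM at 4 h in clones a, b and c, against 3.61, 2.91 and 3.25 CPM in untreated cells. These ranges were apart, with a log2 difference of −0.38 ± 0.15, while at 1 h and 2 h the treated and untreated values overlapped.

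Aldh1a3 (chr7:66390890-66427517, minus strand) encodes an enzyme of the same reaction, known from the eye and nose of the mouse embryo. It was at 4.15, 21.3 and 14.1 CPM at 4 h in clones a, b and c, against 0.555, 0.557 and 0.553 CPM in untreated cells. At 2 h it was at 0.804, 1.44 and 1.53 CPM, above every untreated library, and at 1 h it overlapped them. Its log2 change was −0.03 ± 0.66 after 1 h, then 1.18 ± 0.59 after 2 h, then 4.56 ± 0.57 after 4 h. In raw counts summed over clones it had 1091 counts at 4 h and 48 in untreated cells, a depth-scaled ratio of 24.3 with a 95% interval of 18.2 to 33.2 that covers counting error only.

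Within the dehydrogenase pair, per kb of exon, Aldh1a3 made up 7.77 ± 0.793% (SD, n = 3) of the summed level of Aldh1a2 and Aldh1a3 in untreated cells. The share was 8.39 ± 3.46% after 1 h, 16.1 ± 5.11% after 2 h and 66.5 ± 17.9% after 4 h. At 4 h the share was 46.1% in clone a, 79.4% in clone b and 74.1% in clone c. In clone a, Aldh1a2 thus remained slightly above Aldh1a3 per kb, while in the other clones Aldh1a3 was the higher.

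Cyp26a1 (chr19:37697798-37701536, plus strand), the gene of the main retinoic acid hydroxylase of the early embryo and a classical retinoic acid target, had few counts before 4 h. It had 65, 297 and 219 counts at 4 h in clones a, b and c, against 11, 4 and 7 counts in untreated cells. This was 2.50, 10.1 and 8.65 CPM at 4 h and 0.339, 0.159 and 0.242 CPM in untreated cells. The 1 h libraries (4, 3 and 7 counts) and the 2 h libraries (8, 7 and 11 counts) lay within or close to the untreated range. On the log2 scale Cyp26a1 differed by −0.50 ± 0.75 after 1 h, by 0.30 ± 0.67 after 2 h and by 4.79 ± 0.53 after 4 h. The summed counts gave a 4 h to untreated ratio of 28.2 with a 95% interval of 18.5 to 45.4, again for counting error only. Cyp26a1 passed the filter on low counts only through its 4 h libraries, so its calls carry no support for this reason as well as for the way the genes were chosen.

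The 4 h changes of Cyp26a1, Aldh1a3 and Rarg were smallest in clone a. Within clones a, b and c, Cyp26a1 differed by 2.64, 5.45 and 4.79, Aldh1a3 by 2.75, 5.08 and 4.50, and Rarg by 1.54, 1.71 and 1.77 on the log2 scale at 4 h. Clone b had the largest change of Cyp26a1 and Aldh1a3 and clone c that of Rarg. Clone a also had the lowest Egr1 and Spry4 levels. Whether these go together was not tested.

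**Figure D2:**
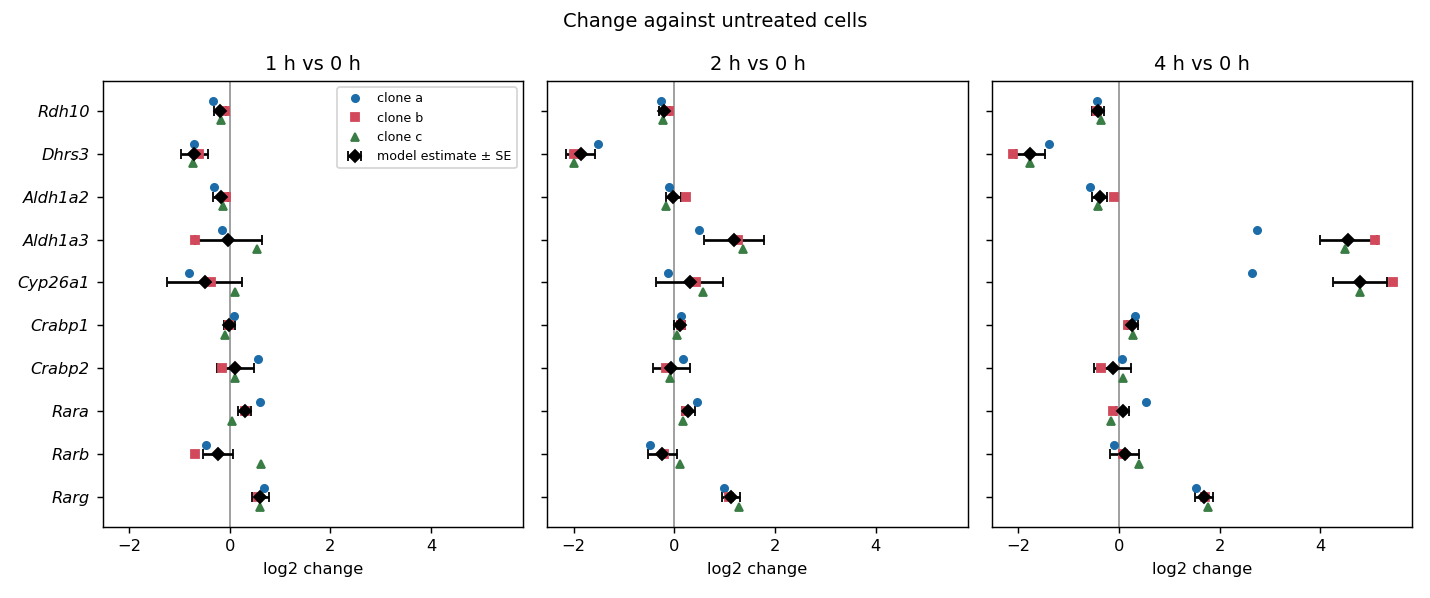
Log2 change of the 10 genes against untreated cells for the 3 treated times, with the model estimate ± SE in black and the change within each clone as coloured symbols. At 4 h Cyp26a1 and Aldh1a3 lie far right of 0 with clone a nearest to 0, Rarg lies at 1.68 and Dhrs3 at −1.76.

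The cellular retinoic acid binding proteins carry retinoic acid inside the cell. CRABP2 is known for handing retinoic acid to the receptors and CRABP1 for holding it in the cytoplasm. Crabp1 (chr9:54764748-54773110, plus strand) was at 11.98, 11.4 and 13.6 CPM at 4 h in clones a, b and c, against 9.56, 10.1 and 11.2 CPM in untreated cells. The ranges were apart by a narrow margin, with a log2 difference of 0.26 ± 0.11. Crabp2 (chr3:87948666-87953376, plus strand) was at 3.45, 6.55 and 5.21 CPM at 4 h, against 3.33, 8.44 and 4.95 CPM in untreated cells. Its groups overlapped, and clone b was the highest at every time. Per kb, Crabp1 made up 80.2 ± 5.51% of the summed level of this pair at 4 h and 75.9 ± 8.53% in untreated cells, so that its share overlapped between the groups.

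Among the receptors, Rarg (chr15:102234938-102257517, minus strand), the gene of RARγ, was higher at each successive time. Untreated, clones a, b and c had 59.2, 79.0 and 67.0 CPM of Rarg. After 1 h it was at 94.6, 116 and 102 CPM, after 2 h at 117, 167 and 164 CPM, and after 4 h at 172, 258 and 228 CPM. No 2 successive groups overlapped, and within each clone the order followed time. Against untreated cells this was a log2 change of 0.61 ± 0.17 after 1 h, 1.13 ± 0.17 after 2 h and 1.68 ± 0.18 after 4 h. The steps were 0.52 ± 0.17 from 1 h to 2 h and 0.56 ± 0.17 from 2 h to 4 h.

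Rara (chr11:98927818-98974942, plus strand), the gene of RARα, was at 78.7, 83.5 and 79.1 CPM at 1 h, against 52.0, 67.5 and 77.0 CPM in untreated cells. This was a log2 difference of 0.30 ± 0.13 without overlap, by a narrow margin (78.7 against 77.0 CPM), and it was not called. At 2 h and 4 h its range overlapped that of untreated cells, with differences of 0.28 ± 0.13 and 0.07 ± 0.13. Rarb (chr14:16430839-16819156, minus strand), the gene of RARβ and a known retinoic acid target, was at 0.921, 1.02 and 0.711 CPM at 4 h, against 0.987, 0.955 and 0.519 CPM in untreated cells. Its groups overlapped at every time, with differences of −0.23 ± 0.29, −0.24 ± 0.29 and 0.11 ± 0.28 at 1 h, 2 h and 4 h. Exons of Top2b on the other strand cover 34.1% of the exon length of Rarb, and counts of overlapping genes cannot be separated without the strand setting, so the level of Rarb is uncertain.

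The summed level of the 3 receptors was 67.5 ± 8.78 CPM per kb at 4 h and 31.2 ± 4.53 CPM per kb in untreated cells (SD, n = 3). Rarg made up 51.6 ± 4.00% of it in untreated cells. Its share was 56.7 ± 1.78% after 1 h, 65.4 ± 2.87% after 2 h and 75.9 ± 5.52% after 4 h. Rara made up the rest nearly alone, with 23.9 ± 5.48% at 4 h and 47.9 ± 4.18% in untreated cells, and Rarb was under 1% in every group.

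**Figure D3:**
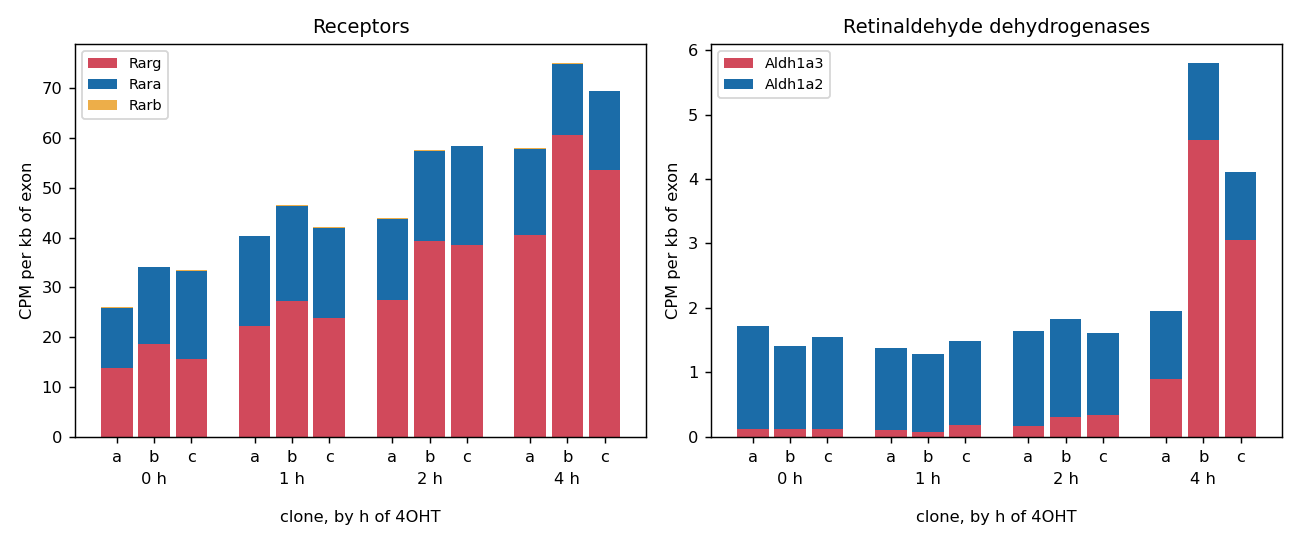
Stacked levels (CPM per kb of exon, linear axes from 0) of the receptors Rarg, Rara and Rarb (left) and of Aldh1a3 and Aldh1a2 (right), 1 bar per library, ordered by hours of 4OHT and clone. The Rarg portion grows at each time, and the Aldh1a3 portion exceeds that of Aldh1a2 only in clones b and c at 4 h.

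Each pair of times was compared across all 14185 genes tested with edgeR's quasi-likelihood test, and a gene was called at a Benjamini-Hochberg adjusted p under 0.05. At 1 h no gene of the 10 was called, beside 0.0775% of all genes tested called higher and 0% called lower. Of the 10, 3 had an unadjusted p under 0.05, beside 1630 of all 14185 genes tested. DESeq2 and limma-voom also called 0 of the 10. With the clone letter as a block, Rarg was called higher and Dhrs3 lower at 1 h, when 6.99% of all genes were called in either direction. At 2 h, 1 gene was called higher (Rarg, beside 9.56% of all genes) and 1 lower (Dhrs3, beside 6.64%), and the block called the same 2, beside 40.6%. At 4 h, 3 were called higher (Cyp26a1, Aldh1a3 and Rarg, beside 18.0%) and 2 lower (Dhrs3 and Rdh10, beside 15.1%). The block called Crabp1 higher and Aldh1a2 lower as well at 4 h, 7 of the 10 in all, beside 52.0%. The genes were chosen with these contrasts known, and nothing is read from the counts beyond the values.

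For the step from 1 h to 2 h, 0 of the 10 genes were called, beside 0.0564% of all genes called higher and 0.00705% called lower. At this step 2 of the 10 had an unadjusted p under 0.05, beside 2291 of all 14185 genes tested. DESeq2 called 1 of the 10 and limma-voom 0. The block called Rarg higher and Dhrs3 lower here, beside 12.6% of all genes. From 2 h to 4 h, Cyp26a1 (4.49 ± 0.52) and Aldh1a3 (3.38 ± 0.52) were called higher, beside 3.27% of all genes, and none was called lower, beside 1.41%. The block added Rarg, beside 22.0%. The median absolute log2 change of the 10 genes was 0.22 after 1 h, 0.26 after 2 h and 0.40 after 4 h, and over all genes tested it was 0.14, 0.24 and 0.30 after the same times.

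Calls of Rdh10, Rarg, Dhrs3, Cyp26a1 and Aldh1a3 depended on single libraries or clones to different degrees. Cyp26a1 and Aldh1a3 at 4 h were called in all 12 fits without 1 library, with log2 changes of 4.44 to 5.19 and 4.02 to 4.98. The genes described here were chosen with these changes known, so no repeated call of Cyp26a1, Aldh1a3, Rarg, Dhrs3 or Rdh10 adds support. Cyp26a1 was also tested only through its 4 h libraries. Rarg (1.55 to 1.83) and Dhrs3 (−2.07 to −1.50) at 4 h were called in all 12 as well. Rdh10 at 4 h lost its call when clone a's untreated library, clone b's 4 h library or clone c's 4 h library was left out, and its log2 change was −0.48 to −0.33 over the fits without 1 library. It also lost its call with the 2 groups fitted alone and without clone b or clone c at all times. Without clone c at all times, Dhrs3 was not called at 2 h or 4 h and Rarg was not called at 2 h. Without clone b or clone c at all times, neither Cyp26a1 nor Aldh1a3 was called between 2 h and 4 h.

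By likeness of log2 CPM over the 12 libraries, among 12246 genes with a mean of at least 1 CPM, Cyp26a1 was closest to Ermp1 (Pearson r = 0.995), Dock4 (0.979), Amotl1 (0.978), Zfp334 (0.976) and Aldh1a3 (0.974). Aldh1a3 was closest to Bbs2 (0.989), Ermp1 (0.983), Akr1b8 (0.982), Loxl4 (0.981) and Ubash3b (0.980). Dhrs3 was closest to Gpr19 (0.984), Gm35315 (0.982), Fam13c (0.979), Pde1b (0.979) and Ccl25 (0.976), all of which were lower at 4 h. Dhrs3 and Rarg ran opposite to each other (r = −0.93), as did Rdh10 and Rarg (−0.91) and Rdh10 and Aldh1a3 (−0.82). The 12 points share 4 times and 3 clones, and these r values describe the libraries only.

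Of 52 other genes of the retinoid pathway, 36 were tested. At 1 h none was called by edgeR, and DESeq2 and limma-voom called 0. An unadjusted p under 0.05 was found for 2 of the 36, beside 1630 of all 14185 genes tested. At 2 h, 4 rose, Rdh5, Rdh11 and Zfp423 among them, and 0 fell, and with the block 6 rose and 7 fell. Over all genes tested 9.56% rose and 6.64% fell at 2 h, and 40.6% were called with the block. The 2 h changes were 1.11 ± 0.30 for Rdh5 (adjusted p = 0.0303), 0.83 ± 0.11 for Rdh11 (0.00267) and 0.55 ± 0.13 for Zfp423 (0.0242). Of these, Rdh11 was called whichever single library was left out. Rdh5 (0.81 to 1.34) and Zfp423 (0.46 to 0.66) lost their call without the untreated or 2 h library of clone b, the untreated library of clone a or the 2 h library of clone c. At 4 h, 8 of the 36 rose and 5 fell, beside 18.0% and 15.1% of all genes tested, and these shares are close. With the block 10 rose and 5 fell at 4 h, beside 52.0% of all genes called in either direction. The list's median log2 change was 0.04 beside −0.02 over all genes. Of the 13 called without the block, Adh7, Rxrg and Lrat passed the filter on low counts only through the group where they were high. Their calls therefore carry no support.

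Of the genes for uptake, binding and storage, Lpl, the lipoprotein lipase gene, fell at 4 h (log2 −1.14 ± 0.29, adjusted p = 0.0128). Lrat, which encodes the enzyme that stores retinol as ester, was at 0.0678 to 0.154 CPM at 4 h and at 0.438 to 0.555 CPM in untreated cells. Fabp5, which can carry retinoic acid to other nuclear receptors, was at 7.81 ± 1.32 CPM at 4 h and 7.67 ± 1.06 CPM in untreated cells (adjusted p = 0.94).

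Of 9 further retinol and retinaldehyde enzymes tested, 3 rose and 1 fell at 4 h, beside 18.0% and 15.1% of all genes. Adh7, an alcohol dehydrogenase gene that also acts on retinol, had 48 counts at 4 h and 6 in untreated cells over the 3 clones. The ratio of these counts was 8.56 with a 95% interval of 3.66 to 24.5, for counting error only. Rdh11, a retinaldehyde reductase gene, rose at 4 h as at 2 h (0.54 ± 0.11 and 0.83 ± 0.11), as did Rdh5 (1.21 ± 0.30 and 1.11 ± 0.30). Exons of Bloc1s1 overlap 25.6% of the exon length of Rdh5, so its counts are uncertain. Bco2, which encodes a carotenoid cleaving enzyme, fell (−1.72 ± 0.53, adjusted p = 0.0288). Without clone a's or clone b's untreated library, or without clone b's 4 h library, Bco2 was not called (−2.05 to −1.38 over all fits without 1 library). Aldh1a1, a further retinaldehyde dehydrogenase gene, and Cyp26b1, a further retinoic acid hydroxylase gene, had too few counts to be tested. Cyp26b1 had 1 count at 4 h and 18 in untreated cells over the 3 clones. This was a ratio of 0.0594 with a 95% interval of 0.00143 to 0.376, again for counting error only.

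Among the partner receptors and coregulators, Rxra and Rxrb, which encode the usual partners of the RARs, gave no call at 4 h. Rxra was at 19.2 ± 3.58 CPM at 4 h and 19.1 ± 3.02 CPM in untreated cells (adjusted p = 0.974). Rxrb was at 48.5 ± 4.93 CPM at 4 h and 43.1 ± 5.92 CPM in untreated cells (adjusted p = 0.259). Rxrg, the third RXR gene, had 55 counts at 4 h and 3 in untreated cells. This was a ratio of 19.6 with a 95% interval of 6.37 to 98.0, for counting error only. The corepressor gene Ncor1 differed by −0.01 ± 0.07, and Nrip1, a corepressor recruited by bound receptor, by −0.19 ± 0.14, neither of them called. Tbl1x and Tbl1xr1, which encode subunits of the NCoR complex, fell (−0.42 ± 0.06 and −0.60 ± 0.08, adjusted p = 5.62e-04 and 5.53e-04). Zfp423, a zinc finger gene needed for retinoic acid response in mouse cells, rose (1.79 ± 0.14, adjusted p = 4.12e-05). It was at 105, 152 and 145 CPM at 4 h in clones a, b and c, against 34.1, 37.8 and 44.6 CPM in untreated cells. The coactivator genes Ncoa3 and Ep300 also rose (0.51 ± 0.10 and 0.34 ± 0.12), although Ep300 (0.24 to 0.45) was past the threshold in only 4 of 12 fits without 1 library. Those were the fits that left out clone c's untreated library, clone a's 1 h or 4 h library or clone b's 2 h library. Lrat, Lpl, Bco2, Rdh5, Rdh11, Ncoa3 and Ep300 were named after their values were seen, to complete the counts. Exons of other genes also overlap those of Adh7, Bco2, Ncor1, Ncoa3 and Ep300.

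Of 30 genes known to respond to retinoids, 15 were tested, and 15 had too few counts, with 5 Hox genes at 0 counts in all libraries. At 1 h none was called by edgeR, DESeq2 or limma-voom, and 1 had an unadjusted p under 0.05, beside 1630 of all 14185 genes tested. At 2 h, 0 rose and 1 fell, and with the block 1 rose and 3 fell, beside the same shares of all genes as above. At 4 h, 4 of the 15 rose and 1 fell, beside 18.0% and 15.1% of all genes tested. The block called 4 higher and 3 lower, beside 52.0% of all genes in either direction, and nothing particular to the list is read from these counts. The median log2 change at 4 h was 0.05 beside −0.02 over all genes tested.

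Those that rose at 4 h were the homeobox genes Meis1, Meis2 and Cdx1 and the zinc finger gene Tshz1. Meis1 was at 6.72, 13.2 and 10.2 CPM at 4 h in clones a, b and c, against 3.61, 2.87 and 3.77 CPM in untreated cells (1.55 ± 0.27, adjusted p = 0.00188). Exons of Gm37818 overlap 9.77% of its exon length. Tshz1 was at 3.84, 16.2 and 8.18 CPM at 4 h, against 1.23, 1.91 and 1.80 CPM in untreated cells (2.52 ± 0.48, adjusted p = 0.00278). Meis2 differed by 1.02 ± 0.21 (adjusted p = 0.00452) and Cdx1 by 1.58 ± 0.50 (adjusted p = 0.0303). Without clone a's or clone b's untreated library, or without clone c's 4 h library, Cdx1 was not called (1.07 to 2.07 over all fits without 1 library). Skida1 was the one that fell, at 4.18, 2.92 and 3.16 CPM at 4 h against 8.79, 15.8 and 11.1 CPM in untreated cells (−1.80 ± 0.25, adjusted p = 5.51e-04). Of the Hox genes, Hoxb1 had at most 2 counts in any library. The 12 Hox genes of the list together had 6 to 25 counts per library. Stra8, a germ cell gene induced by retinoic acid, differed by 0.05 ± 0.33 (adjusted p = 0.924).

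**Figure D4:**
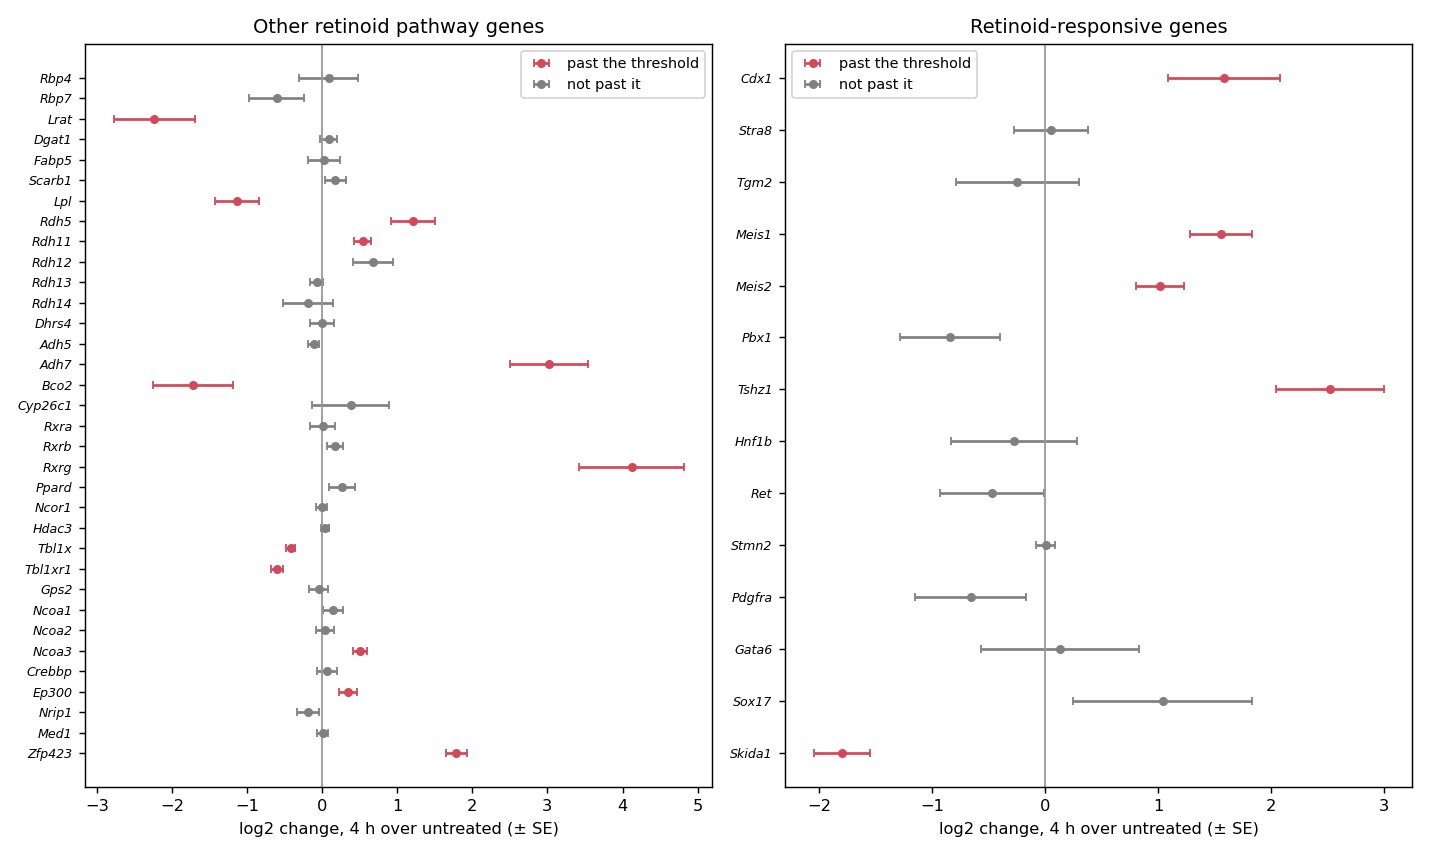
Log2 change at 4 h against untreated cells, ± SE, of 34 tested genes of the other retinoid pathway list (left) and of 14 tested retinoid-responsive genes (right), with genes past the threshold in red. On the left 7 genes lie right of 0 and 5 left of 0 among the red ones, and on the right 4 and 1.

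Markers of other cell types moved at 4 h beside these changes, and their part in the results was not tested. The summed level of 8 fibroblast markers was 11.6 to 26.6 CPM at 4 h and 3.48 to 4.32 CPM in untreated cells. Thy1, at 17.0 CPM at 4 h and 3.42 CPM in untreated cells on average, made up most of it. Thy1 and Col1a1, which reached at most 1.07 CPM at 4 h, were called higher by edgeR, and the other 6 were under 1 CPM in every library of both groups. The 6 trophoblast markers summed to 16.4 to 54.0 CPM at 4 h and 3.95 to 4.74 CPM in untreated cells, with Elf5, Krt7 and Hand1 under 1 CPM. Cdx2 was at 4.61, 32.8 and 14.7 CPM at 4 h in clones a, b and c, and at most 0.0617 CPM in untreated cells. Of the 4 trophoblast markers tested, 3 were called higher at 4 h, Cdx2 among them, beside 18.0% of all genes. Cdx2 passed the filter on low counts only through its 2 h and 4 h libraries, so its call carries no support. Elf5 and Hand1 had too few counts to be tested. The 6 mesoderm markers summed to 14.5 to 24.1 CPM at 4 h and 4.81 to 5.46 CPM in untreated cells, with Mixl1, Gsc and Mesp1 under 1 CPM. Of the 4 mesoderm markers tested, 2 were called higher at 4 h, beside the same 18.0%. T averaged 2.04 CPM at 4 h and 0.434 CPM in untreated cells. Eomes stands in both of these lists, so their sums are not separate, and at 15.0 CPM at 4 h and 2.98 CPM in untreated cells it made up most of the mesoderm sum. The 7 primitive endoderm markers summed to 4.65 to 12.7 CPM at 4 h and 6.61 to 15.2 CPM in untreated cells. None of the 7 was called by edgeR, 0 had an unadjusted p under 0.05, and 2 were lower with the block. Over all 14185 genes tested, 6271 had an unadjusted p under 0.05 at 4 h, and the block called 52.0%. The 6 neural markers summed to 16.9 to 28.9 CPM at 4 h and 18.8 to 26.02 CPM in untreated cells, with Neurog2 and Tubb3 at 0. Within this overlap of sums, Sox1 (1.00 CPM at 4 h, 3.63 CPM in untreated cells) and Map2 (7.15 and 13.7 CPM) were called lower. Pax6 averaged 14.0 CPM at 4 h and 5.01 CPM in untreated cells without a call in the fit without the block. All 3 neural markers tested had an unadjusted p under 0.05, and the block called 1 higher and 2 lower, beside the same shares of all genes.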

How the data were processed

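Total RNA from 12 libraries (3 clones at each of 4 times) was analysed. The values are raw read counts for each gene symbol, deposited by the authors in 1 table. The submitters' processing notes name STAR, featureCounts, DESeq and the mm10 build. Software versions, gene models, the strand setting of the counting and the handling of multi-mapping reads were not given in the sources used here.

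Groups and clones came from the labels. No 2 libraries were copies of each other (over 66 pairs, chi-square divided by its degrees of freedom was 15.2 to 255). Against GENCODE M21 (GRCm38), 25593 symbols matched 1 gene, 44 several and 260 none. Coordinates are 1-based.

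Of all genes, 14185 passed filterByExpr with a minimum count of 10 and a minimum total of 15, and 11712 did not. Those tested held 99.9662% of all counts. Counts were scaled by TMM and fitted with edgeR's quasi-likelihood model, 1 term per group over all 12 libraries, in R 4.3.3 with edgeR 4.0.16 and limma 3.58.1. The fit had 8 residual degrees of freedom and a biological coefficient of variation of 0.163. Tests were two-sided, with Benjamini-Hochberg adjustment over all genes tested at 0.05. The SE of a log2 change is its size divided by the square root of the F statistic and is approximate. CPM is scaled by TMM, log2 CPM uses a prior count of 2, and levels per kb divide by union exon length. Intervals of count ratios are exact at 95% and cover counting error only. The steps were tested on simulated data.

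Clone letters pair the libraries: libraries of 1 clone left their group means together, with r of 0.184 to 0.684 in all 18 pairs of 1 clone at 2 times, and at most −0.024 between different clones. With the clone as a block, 6 residual degrees of freedom remained and the coefficient was 0.0924. The labels used do not say how the clones were derived, and p-values measure only the spread among these libraries. Alternatives were DESeq2 1.42.0, its size factors, limma-voom, no filter, the block, the 2 groups alone and leaving out each library or clone.

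The 10 genes and all lists were chosen with earlier results of these data known, so the p-values of listed genes are descriptive. Named besides the 10 were Rxra, Rxrb, Fabp5, Cyp26b1, Aldh1a1, Ncor1, Nrip1, Hoxb1, Cdx1 and Stra8, the 6 genes per list with the smallest adjusted p at 4 h among those called, and for each of the 3 of the 10 with the largest 4 h change and a mean of at least 1 CPM the 5 genes most like it. Some genes that this rule covers are counted in the lists but are not reported here.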

Additional observations from a re-analysis of the deposited data

How the results depend on the processing

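No called change turned its direction under any alternative run. Of 743 gene-level values under alternatives, 690 kept direction and side of the threshold, 39 were no longer past it and 14 came to be past it. With the clone as a replicate block, calls among the 10 genes were 2 at 1 h and 2 from 1 h to 2 h, against 0 in each without it. The block called 6.99% and 12.6% of all genes tested in the same comparisons. The block called 13 other pathway genes and 4 retinoid-responsive genes at 2 h, against 4 and 1, beside 40.6% of all genes tested. DESeq2 called 1 of the 10 from 1 h to 2 h. With the 2 groups fitted alone, 0 of the 10 were called from 2 h to 4 h, against 2.

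Leaving out a whole clone moved counts further. Without clone a, 1 of the 10 was called from 1 h to 2 h, and 7 other pathway and 2 responsive genes at 2 h. Without clone b, 0 of the 10 were called from 2 h to 4 h, 0 other pathway and 0 responsive genes at 2 h, and 8 and 3 at 4 h. Without clone c, the 10 gave 0 calls at 2 h, 3 at 4 h and 0 from 2 h to 4 h, with 0 other pathway and 0 responsive genes at 2 h, and 7 and 1 at 4 h. The causes were not tested, but these fits have fewer samples. Shares of all genes called are not given here for these fits, for DESeq2, for the 2 groups alone or for the fits without 1 library. Nothing particular to the 10 genes or the lists is therefore read from their counts.

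Leaving out 1 library at a time, calls among the 10 ranged from 0 to 0 at 1 h, 2 to 3 at 2 h, 4 to 5 at 4 h, 0 to 0 from 1 h to 2 h and 2 to 3 from 2 h to 4 h. Other pathway calls ranged from 0 to 0, 1 to 7 and 11 to 14 at 1 h, 2 h and 4 h, and responsive calls from 0 to 0, 1 to 2 and 4 to 6. Rdh10, Bco2, Ep300 and Cdx1 at 4 h and Rdh5 and Zfp423 at 2 h lost their call in some of these. Depth limits Cyp26a1 before 4 h, where libraries held 3 to 11 counts.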

Other observations

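Among 14043 tested genes with an exon length, Rarg stood at percentile 92.7 of the level per kb at 4 h and 77.8 in untreated cells. Cyp26a1 stood at percentile 46.8 at 4 h and 5.59 in untreated cells, and Aldh1a3 at 43.0 at 4 h and 5.33 in untreated cells. Dhrs3 stood at percentile 19.8 at 4 h and 34.0 in untreated cells. At 4 h both enzymes that were nearly silent before treatment had thus come near the middle of the tested genes by their 3-clone means. Clone a lay lower, at 1.26 CPM per kb for Cyp26a1 and 0.898 for Aldh1a3, against means of 3.57 and 2.85. These places are descriptions without a test.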
